A study of Mus musculus with 15 samples.

Results

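The genes described here are 33 components and regulators of the mouse complement system, taken by gene symbol from a table of 38087 gene rows. They comprise 8 genes of the classical pathway, 7 of the lectin pathway, 4 of the alternative pathway, 6 of the terminal pathway and 8 regulators. The symbol was found for 32 of them, and C1s1 was found by its gene identifier. RNA was sequenced from cryopreserved primary hepatocytes of CD-1 donor mice, which had attached for 6 h, were overlaid with a Geltrex matrix and were later given 25% mouse serum for 24 h. All groups shared a medium with dexamethasone, insulin and transferrin, so no group was free of glucocorticoid. In the last 2 h every well received mouse growth hormone at 8 ng per ml or its vehicle, phosphate-buffered saline.

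The 5 groups were male hepatocytes in serum of conventionally raised male mice (3 libraries), female hepatocytes in the same male serum (3), female hepatocytes in serum of conventionally raised female mice (2), female hepatocytes in serum from females raised germ-free, that is without microbiota (2), and the last condition with growth hormone (3). All groups but the last received vehicle. Serum of germ-free males and male cells in other sera are not analysed here. Male and female cells came from separate donor stocks, so donor sex and donor stock cannot be told apart. The labels do not say whether replicates came from separate animals, cultures or serum pools, so p-values measure the spread between these libraries, which may be technical. Nothing in the sources used here gives the ages of the mice.

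Complement is a set of plasma proteins that act in sequence, most of them made and secreted by hepatocytes. The classical pathway starts from C1 bound to antibody, the lectin pathway from mannose-binding lectins, collectins or ficolins bound to sugars, and the alternative pathway from C3 that turns over by itself and is amplified by factor B. All of them cleave C3 and then C5, after which C5b, C6, C7, C8 and C9 assemble into a pore in the target membrane. Regulators stop the cascade in plasma and on host cells. In the liver, many complement genes belong to the acute phase response.

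Libraries held 34097400 to 48742274 counts. Of the 33 members, 31 had enough counts to be tested among 17405 genes, and Cfd and Colec11 did not. Xist, the noncoding RNA of the inactive X chromosome, had at most 3 counts in each male library and 268 to 685 counts per 1000000 counts (CPM) in the female libraries. It was highest in replicate 2 of conventional female serum (481 CPM) and replicate 1 of the growth hormone group (685 CPM), and results that rest on these libraries are given with and without them. The sum of 10 hepatocyte markers was 37245 to 38115 CPM in male cells and 18925 to 25105 CPM in the female groups, and each of the 10 was detected. The sum of 12 macrophage markers was 152 to 171 CPM in male cells and 81.2 to 136 CPM in female cells, nearly all of it Cd68. Without Cd68 the other 11 summed to 7.00 to 10.3 CPM in every group. The 10 endothelial markers summed to 63.5 to 67.0 CPM in male cells and 20.0 to 28.9 CPM in female cells. The 12 stellate cell markers summed to 36.4 to 41.9 CPM in male cells and 18.8 to 39.4 CPM in female cells. Cholangiocyte markers (6) lay between 28.6 and 49.1 CPM and those of lymphocytes and neutrophils (7) between 0.631 and 1.99 CPM over all libraries.

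Levels of the members spanned several orders of magnitude when the mean CPM of a group was divided by the exon length of the gene in kilobases (kb). In female cells in conventional male serum, Clu stood highest at 2966 CPM per kb. Clusterin, its product, is a secreted chaperone that keeps the terminal complex out of membranes. Mbl2, a mannose-binding lectin, followed at 502 CPM per kb. Cfb (102), C3 (97.8), C4b (90.1) and Vtn (71.6 CPM per kb) formed the next tier, with C2 left out because most reads in its row appear to be those of Cfb. At the other end, Cd46 and Cd55, membrane regulators that protect host cells, stood at 0.0551 and 0.104 CPM per kb. Cfd, the protease that activates factor B, stood at 0.0375 CPM per kb, with 0 to 3 counts in each of the 13 libraries. Colec11, a collectin, had 0 to 11 counts. Clu ranked first and Mbl2 second in all 5 groups. With the C2 row counted, C3 had rank 7 in male cells and 3 or 4 in the female groups. Its level was 118 CPM per kb in male cells, within the 97.8 to 157 CPM per kb of the female groups. C9 had rank 11 in male cells and 20 or 21 in the female groups.

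**Figure D1:**
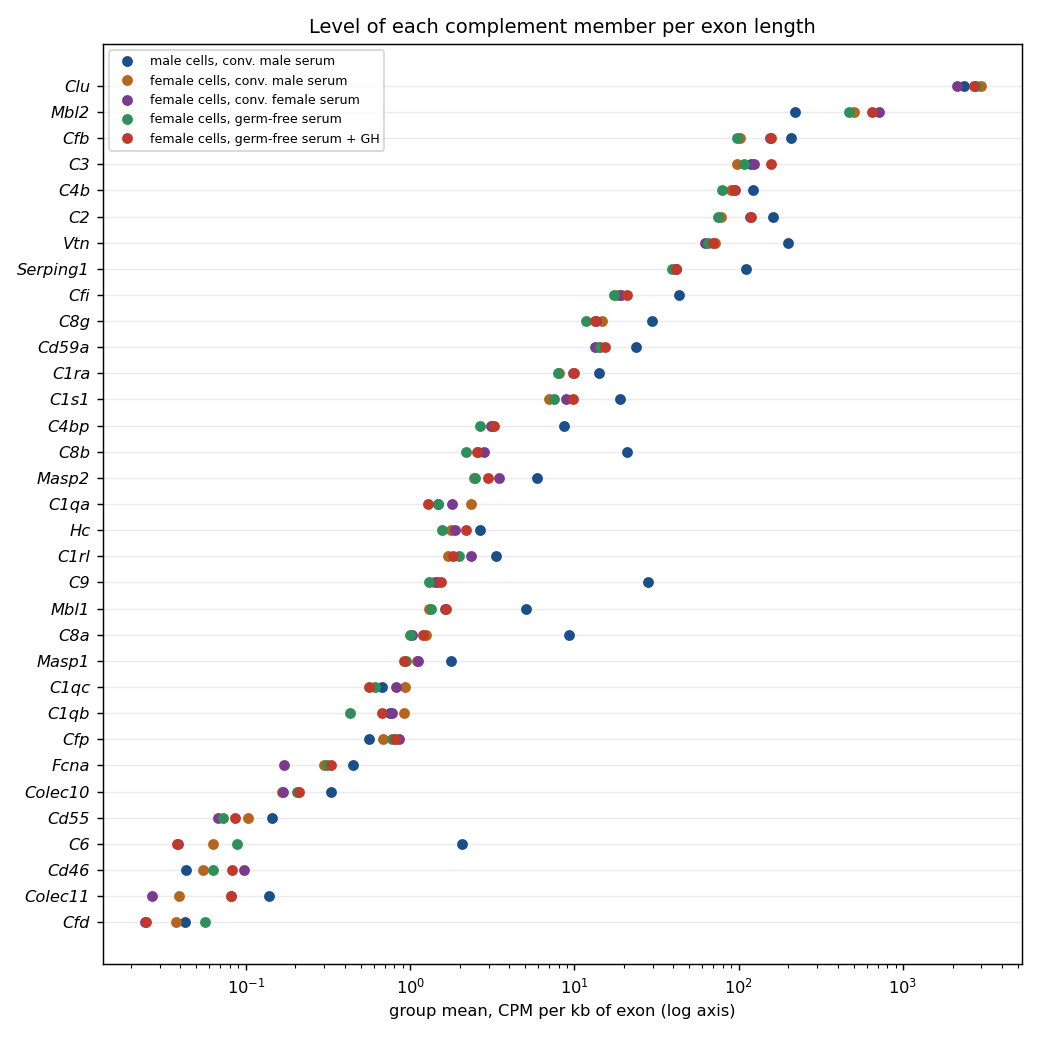
Level of each member as the group mean in CPM per kb of exon on a log axis, with 1 point per group and genes in the order of their level in female cells in conventional male serum. Clu lies between 2134 and 2966 CPM per kb in every group, and the male point stands far to the right of the female points for C6, C8a, C8b and C9.

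Some rows cannot be read as 1 gene each. C2, the protease of the classical and lectin C3 convertase, and Cfb, its alternative pathway counterpart, are neighbours on chromosome 17 of mm10 (C2 at chr17:34862604-34898265 and Cfb at chr17:34856374-34862518, minus strand). Their annotated exons do not overlap in GENCODE release M21, but the count of Cfb was 93.2% to 96.8% of the count of C2 in every library. A gene model that spans both, Gm20547, had 227966 counts where C2 had 228035. The C2 row thus appears to hold the reads of Cfb, and calls of C2 and Cfb are described below as 1 signal. What remained of C2 after the Cfb counts were subtracted was 35.8 to 41.3 CPM in male cells and 11.8 to 19.8 CPM in female cells. Masp2 shares 54.9% of its exon length with Tardbp on the opposite strand, which had 136176 counts over all libraries where Masp2 had 6010. Since no source used here gives the strand setting of the counting, reads of this pair cannot be told apart. C4b and C4a, and C1s1 and C1s2, are close copies whose reads an aligner may exchange.

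The first comparison asked how male and female hepatocytes differed in the same serum. Of the 31 members tested, 21 were higher in male cells and 2 were lower, which is 74.2% of them. Over all genes tested the share was 36.7%, with 17.6% higher and 19% lower. The median log2 difference was 0.98 over the members and -0.02 over all genes. All 6 genes of the terminal pathway rose, with a median of 2.95. The higher genes numbered 5 of 8 in the classical pathway, 4 of 6 tested in the lectin pathway, 1 of 3 tested in the alternative pathway and 5 of 8 regulators. Mbl2 and Clu fell. Marker genes of cell types moved too. Of 10 hepatocyte markers 7 rose and Hnf4a fell (log2 -0.33, adjusted p = 0.00214), of 10 endothelial markers 8 rose, and of 11 stellate cell markers tested 4 rose and 1 fell. Their part in these differences was not tested. In bulk libraries fewer cells of a type and less RNA per cell cannot be told apart.

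**Figure D2:**
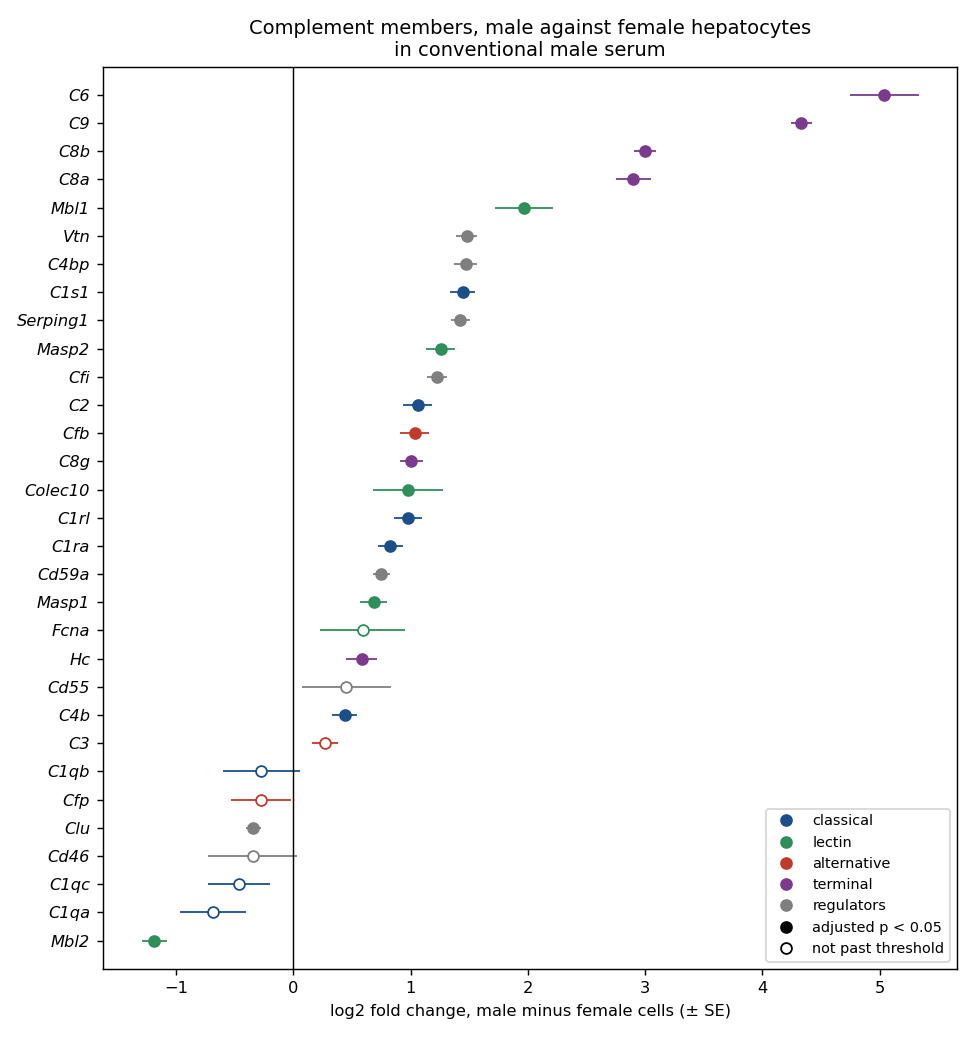
Log2 difference between male and female hepatocytes in conventional male serum for the 31 members tested, with bars of 1 SE and colours by pathway. Filled points passed an adjusted p of 0.05, and 4 terminal pathway genes (C6, C9, C8b, C8a) lie at 2.90 or above while Mbl2 lies at -1.19.

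The pore-forming genes set the upper end. C9, whose product polymerises into the wall of the pore, stood at 68.6, 73.8 and 72.5 CPM in the male libraries and at 3.61, 3.20 and 3.84 CPM in the female libraries in the same serum. This was a 20.1-fold difference, or 4.33 ± 0.089 (SE) on the log2 scale, with adjusted p = 4.48e-15. All 10 female libraries, whatever the serum, ranged from 3.20 to 4.15 CPM. C6, the first protein to bind C5b, stood at 6.88, 7.41 and 7.92 CPM in male and at 0.107, 0.361 and 0.202 CPM in female cells. Its female level rested on 25 counts over 3 libraries against 769 in the male libraries. The pooled ratio was 33.5 (95% Clopper-Pearson interval 22.5 to 52.1, counting error only), and the fitted log2 difference was 5.04 ± 0.29 (SE) with adjusted p = 1.38e-09.

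The genes of all 3 chains of C8, which joins the complex before C9, were higher in male cells. C8a, the alpha chain, stood at 32.2, 34.0 and 35.3 CPM in male and 3.99, 5.22 and 4.37 CPM in female libraries. C8b, the beta chain, stood at 54.9, 50.8 and 52.9 and 7.36, 6.03 and 6.40 CPM. These were differences of 7.47-fold (adjusted p = 2.49e-10) and 8.01-fold (adjusted p = 7.08e-13). The genes are neighbours on chromosome 4 of mm10 (C8b at chr4:104766317-104804548, plus strand, and C8a at chr4:104815679-104876398, minus strand). C8g, the gamma chain, lies on chromosome 2 and stood at 46.3, 42.7 and 43.8 CPM in male and 21.4, 23.7 and 20.96 CPM in female libraries, a 2.01-fold difference (adjusted p = 7.35e-07). Hc, which encodes C5, stood at 17.0, 15.9 and 17.1 CPM in male and 9.90, 11.6 and 11.9 CPM in female libraries, a log2 difference of 0.58 ± 0.13 (SE) (adjusted p = 0.00242). The male libraries did not overlap the female libraries in the same serum for any of these 6 genes, all of them called. The share of all genes without overlap is not given here, so this only describes the values. C7, the remaining terminal component, is no member and had too few counts to be tested, with a mean of 0 CPM in male cells and 0.0178 CPM in female cells.

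**Figure D3:**
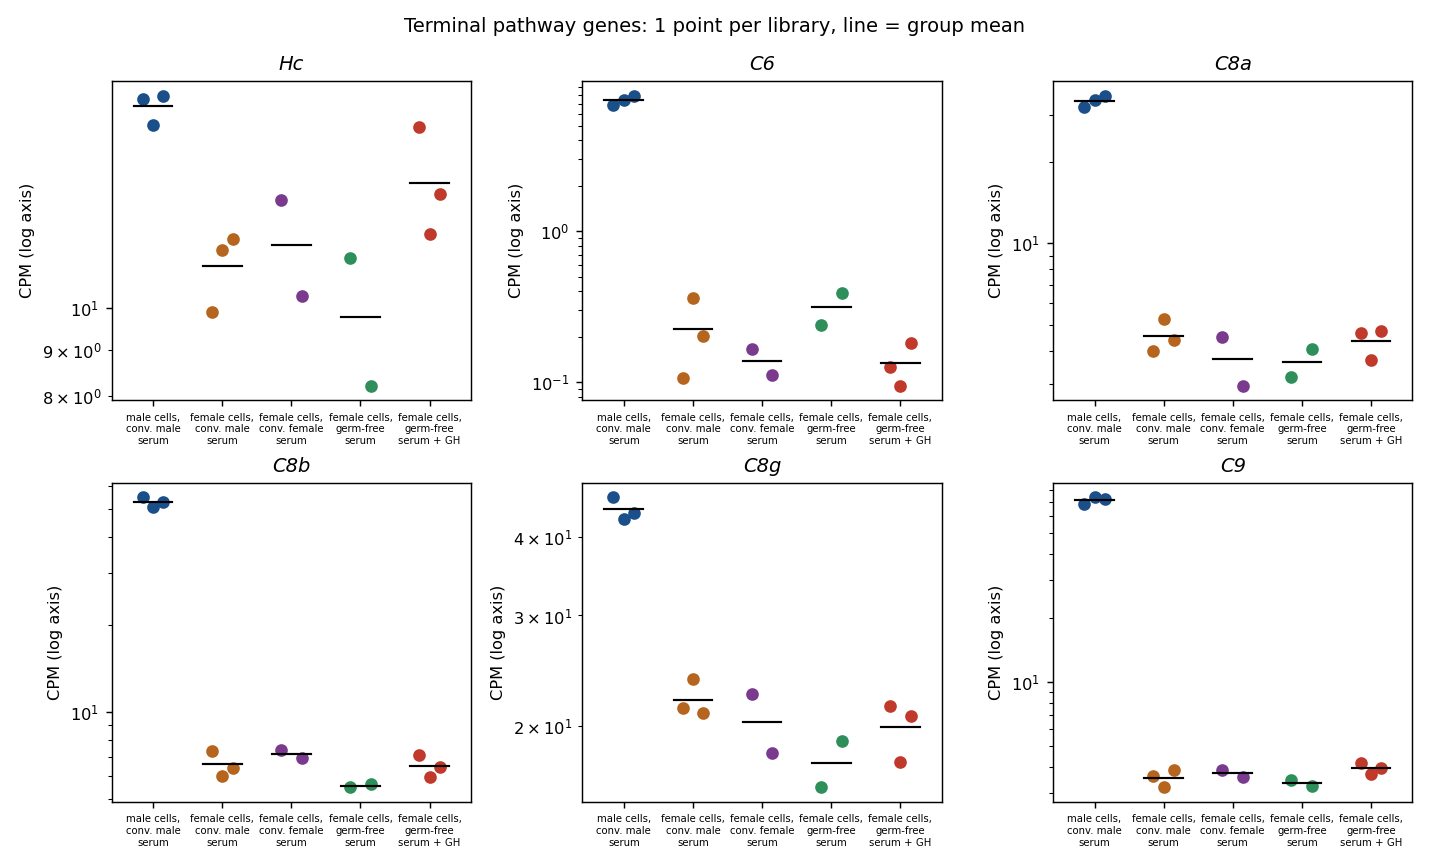
CPM of the 6 terminal pathway genes on log axes, with 1 point per library and a line at the mean of each group. The male libraries stand at 68.6 to 73.8 CPM for C9 and 6.88 to 7.92 CPM for C6, above all 10 female libraries.

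The sequences before the start sites of the 4 terminal genes with the largest differences, and of Mbl2, which moved the other way, are shown because these genes set the 2 ends of the range. They are RefSeq promoters on GRCm38.p6 (mm10), read 5′ to 3′ on the gene's strand, and end before the first annotated exon. Capitals mark matches to 3 motifs, STAT (TTCNNNGAA), NF-kB (GGGNNTTCC) and C/EBP (TTGCNNAA), each searched on both strands. The windows are chr15:4726960-4727174 (plus strand) for C6, chr4:104876399-104876648 (minus) for C8a, chr4:104766067-104766316 (plus) for C8b, chr15:6445096-6445326 (plus) for C9 and chr19:30232678-30232927 (plus) for Mbl2.
C6: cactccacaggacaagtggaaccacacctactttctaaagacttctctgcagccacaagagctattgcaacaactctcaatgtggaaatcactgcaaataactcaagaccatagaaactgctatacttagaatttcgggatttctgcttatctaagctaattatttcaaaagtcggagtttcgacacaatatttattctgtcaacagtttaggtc
C8a: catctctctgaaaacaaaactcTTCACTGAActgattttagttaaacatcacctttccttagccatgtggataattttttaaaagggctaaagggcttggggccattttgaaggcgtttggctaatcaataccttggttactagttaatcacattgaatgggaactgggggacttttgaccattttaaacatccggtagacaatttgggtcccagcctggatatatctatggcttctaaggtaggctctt
C8b: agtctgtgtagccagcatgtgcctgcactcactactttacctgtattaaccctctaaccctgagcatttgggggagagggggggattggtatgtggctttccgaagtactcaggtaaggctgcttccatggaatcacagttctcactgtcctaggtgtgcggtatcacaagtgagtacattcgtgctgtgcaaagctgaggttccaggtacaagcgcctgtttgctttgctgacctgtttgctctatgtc
C9: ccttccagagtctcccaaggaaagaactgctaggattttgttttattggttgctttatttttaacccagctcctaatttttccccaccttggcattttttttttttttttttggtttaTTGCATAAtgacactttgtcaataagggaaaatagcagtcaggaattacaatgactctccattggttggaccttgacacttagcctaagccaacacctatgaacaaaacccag
Mbl2: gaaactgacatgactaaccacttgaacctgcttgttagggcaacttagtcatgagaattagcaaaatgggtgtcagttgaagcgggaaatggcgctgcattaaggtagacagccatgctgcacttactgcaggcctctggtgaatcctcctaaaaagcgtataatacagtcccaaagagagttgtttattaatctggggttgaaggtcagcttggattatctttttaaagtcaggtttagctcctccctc
C8a held a STAT match 228 to 220 bases before the end of its printed window, and C9 held a C/EBP match 113 to 106 bases before the end of its own. No match to the 3 motifs was found in the windows of C6, C8b and Mbl2, which says only that these letters are not there. A promoter was found for 24 of the 33 members, searched over 250 bases before the start. The STAT motif was in 3 of them, NF-kB in 1 and C/EBP in 4. Over 32851 promoters of the same length, 7.02% held the STAT motif, 4.98% NF-kB and 9.56% C/EBP. The matches are a description of these windows.

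In the classical pathway the proteases differed and the recognition subunits did not pass the test. C1s1, the C1s protease that cleaves C4 and C2, stood at 59.3, 60.2 and 59.4 CPM in male and 21.9, 21.5 and 22.3 CPM in female libraries, a 2.72-fold difference (adjusted p = 2.35e-08). C1ra, the C1r protease that activates C1s, stood at 41.7, 41.1 and 44.2 CPM and 22.6, 25.5 and 23.4 CPM, a 1.77-fold difference (adjusted p = 1.57e-05). C1rl, a C1r-like protease, stood at 10.9, 10.2 and 9.02 CPM and 4.93, 5.28 and 5.06 CPM, a 1.97-fold difference (adjusted p = 7.52e-06). These genes lie within chr6:124493113-124542359 of mm10. C4b, the substrate of C1s, stood at 691, 687 and 709 CPM in male and 492, 530.0 and 518 CPM in female libraries, a 1.36-fold difference (adjusted p = 0.00414). No male library overlapped the female libraries for these 4 genes, again with no share over all genes given.

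The chains of C1q, which binds antibody, are known as macrophage products. C1qa stood at 2.27, 0.988 and 1.33 CPM in male and 2.78, 2.70 and 1.87 CPM in female libraries, and these overlapped. Its log2 difference was -0.69 ± 0.28 (SE) with adjusted p = 0.0704, and it passed the test without male replicate 1 (-1.07, adjusted p = 0.0100) and without female replicate 3 (-0.85, adjusted p = 0.0397). It also passed in edgeR with library size alone as scaling (-0.77, adjusted p = 0.0390) and with no filter on low counts (-0.68, adjusted p = 0.0231). In the other alternatives C1qa did not pass. C1qb (-0.27, adjusted p = 0.551) and C1qc (-0.46, adjusted p = 0.184) did not pass. Of the 12 macrophage markers, 6 had a higher mean in male and 6 in female cells, and Cd68 alone of the 8 tested was called, higher in male cells (log2 0.96). Vsig4, a Kupffer cell marker, averaged 0.581 CPM in male and 1.02 CPM in female cells (log2 -0.82, adjusted p = 0.0536). Clec4f averaged 3.17 and 3.26 CPM, Adgre1 0.345 and 0.498, Csf1r 0.716 and 0.861, Lyz2 1.48 and 1.54, and Cd5l 0.0887 and 0.103 CPM. Besides Cd68, means were higher in male cells for Mrc1 (2.28 and 1.67 CPM), Ptprc (0.512 and 0.405) and Cd163 (0.193 and 0.123). The same held for Marco (0.0902 and 0.0362) and Timd4 (0.0288 and 0.00926 CPM). The part of macrophage RNA in the C1q values was not tested.

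The 2 mannose-binding lectins moved in opposite directions. Mbl2 stood at 252, 231 and 237 CPM in male libraries and at 469.6, 592 and 576 CPM in female libraries in the same serum, 2.28-fold higher in female cells (log2 -1.19 ± 0.11 (SE), adjusted p = 2.99e-07). Mbl1 was much less abundant, at 6.05, 9.06 and 8.93 CPM in male and 1.47, 2.89 and 1.80 CPM in female libraries, and was 3.92-fold higher in male cells (log2 1.97 ± 0.25 (SE), adjusted p = 1.05e-05). Every male library lay below every female library for Mbl2 and above every one for Mbl1. Masp1, a protease bound to these lectins, stood at 17.8, 16.3 and 18.0 CPM and 9.13, 12.0 and 11.2 CPM, a 1.61-fold difference (adjusted p = 2.02e-04). Masp2, the protease that cleaves C4 and C2 in this pathway, stood at 21.01, 18.8 and 18.6 CPM and 8.86, 7.81 and 7.74 CPM, a 2.39-fold difference (adjusted p = 1.01e-06), while its overlapping neighbour Tardbp had a log2 difference of -0.07 (adjusted p = 0.462). Colec10, a liver collectin, was low, at 1.75, 1.32 and 1.44 CPM against 0.455, 0.861 and 0.961 CPM, and its log2 difference of 0.98 ± 0.30 (SE) had adjusted p = 0.0161. That call was lost without male replicate 1 (adjusted p = 0.0632) or female replicate 1 (adjusted p = 0.0724). Fcna, a ficolin, stood under 1 CPM in every library and did not pass (0.59, adjusted p = 0.221).

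Within the alternative pathway, Cfb stood at 575, 563 and 629 CPM in male and 250.3, 324 and 288 CPM in female libraries, a 2.05-fold difference (adjusted p = 9.58e-06). The C2 row gave 615, 605 and 665 CPM and 262, 338 and 303 CPM, with a 2.08-fold difference (adjusted p = 6.78e-06). After subtraction of the Cfb counts, C2 still differed, by 1.51 on the log2 scale (adjusted p = 1.72e-07). C3, the protein on which all pathways converge, stood at 607, 614 and 603 CPM and 518, 481 and 511 CPM. Its groups did not overlap, but its log2 difference of 0.27 ± 0.11 (SE) did not pass (adjusted p = 0.0618), though DESeq2 called it (0.28, adjusted p = 0.0339). It was also called in edgeR with no filter on low counts, in a fit of these 2 groups alone and without both Xist-rich libraries. In the other alternatives C3 did not pass. Cfp, properdin, which stabilises the alternative convertase, did not pass (-0.28, adjusted p = 0.426).

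Plasma regulators other than Clu were higher in male cells. Vtn, vitronectin, which binds the forming terminal complex, stood at 397, 417 and 402 CPM in male and 132, 157 and 147 CPM in female libraries, a 2.79-fold difference (adjusted p = 1.94e-09). Serping1, the C1 inhibitor, stood at 274, 245 and 255 CPM and 102, 97.9 and 88.3 CPM, a 2.68-fold difference (adjusted p = 1.09e-09). C4bp, the C4b-binding protein, stood at 61.8, 58.3 and 54.8 CPM and 19.3, 22.7 and 21.2 CPM, a 2.77-fold difference (adjusted p = 6.27e-09). In all 3 genes the lowest male library was more than 2 times the highest female library in the same serum. Cfi, factor I, which cuts C3b and C4b, stood at 95.1, 94.7 and 96.8 CPM and 37.3, 41.7 and 43.5 CPM, a 2.34-fold difference (adjusted p = 1.08e-08). Cd59a, a membrane protein that blocks C9 assembly, stood at 43.3, 43.8 and 42.3 CPM and 25.3, 25.1 and 26.4 CPM, a 1.68-fold difference (adjusted p = 3.61e-07). Clu was lower in male cells, at 7963, 7852 and 8325 CPM in male and 10028, 9993 and 10558 CPM in female libraries (log2 -0.34 ± 0.063 (SE), adjusted p = 5.09e-04). Cd55 and Cd46 stood under 1 CPM in every library and did not pass.

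Further complement genes outside the 33, taken from a list of 31 of which 21 were tested, also differed between male and female cells: 12 were higher in male cells and 2 lower, which is 66.7% against 36.7% of all genes. Among the largest differences on the log2 scale were those of Gm4788 (2.25), Cfhr2 (1.84), Cd93 (1.74), C1s2 (1.74) and Colec12 (1.66). Cd93 is best known from endothelial cells, and the part of such cells in its difference was not tested. The lower genes were Itgb2, a chain of leukocyte complement receptors (-1.03), and C1qbp (-0.28), named after their values were seen. Of 24 genes known to act upstream of complement genes in the liver, 7 were higher and 4 lower, which is 45.8% against 36.7% of all genes. Both lists were chosen with earlier results of these data known, so these shares describe the lists only. Among the largest were Cebpd, an acute phase transcription factor (1.63), Il1r1, an interleukin 1 receptor (0.93), Socs3, a feedback inhibitor of cytokine signals (0.89), Cebpb (0.38) and Ifngr1 (0.38).

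The second comparison asked how serum of germ-free and of conventionally raised female mice differed in their effect on female hepatocytes. Of the 31 members tested, Cfb with C2, and Mbl2, were lower in germ-free serum, and Clu was higher. These 4 rows are 12.9% of the members, against 6.41% of all genes tested (2.86% higher and 3.54% lower). Cfb and the C2 row are both counted in that share, though they stand for 1 signal. The median log2 difference was -0.23 over the members and near 0 (-0.0026) over all genes. No terminal pathway gene passed the test in edgeR or DESeq2. In edgeR 2 of the 6 had an unadjusted p under 0.05, with no share over all genes given at that p.

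Mbl2 stood at 471 and 546 CPM in germ-free serum and 809.6 and 753 CPM in conventional female serum, a log2 difference of -0.62 ± 0.13 (SE) with adjusted p = 0.00935. Cfb stood at 263 and 291 CPM and 500.0 and 374 CPM, a log2 difference of -0.66 ± 0.16 (SE) with adjusted p = 0.0190. The C2 row gave 275 and 303 CPM and 516 and 388 CPM (-0.65, adjusted p = 0.0199), and C2 without the Cfb counts did not pass (-0.32, adjusted p = 0.265). Clu stood at 9428 and 9566 CPM and 7791 and 6877 CPM, a log2 difference of 0.37 ± 0.078 (SE) with adjusted p = 0.00934. The libraries of the 2 sera did not overlap for these genes, but the 2 libraries of conventional serum lay further apart than those of germ-free serum for Cfb. The share of all genes without overlap between these sera is not given here. Without conventional replicate 2, the library rich in Xist, Clu alone was called, while Mbl2 (log2 -0.57, adjusted p = 0.0831) and Cfb (log2 -0.44, adjusted p = 0.244) were not. Without that library and the Xist-rich growth hormone library together, Mbl2 and Clu were called. Without germ-free replicate 2 no member was called, without germ-free replicate 3 only Mbl2 was, and without conventional replicate 3 Clu was lost (adjusted p = 0.0663) while Masp2 and C4b were gained. In a fit of these 2 groups alone, Clu was lost as well (adjusted p = 0.0815). Masp2 (-0.50, adjusted p = 0.0658) and C8b (-0.36, adjusted p = 0.0788) came next in the order of p. DESeq2 called Masp2 (-0.50, adjusted p = 0.0285), and so did edgeR with library size alone as scaling (adjusted p = 0.0479) or with no filter on low counts (adjusted p = 0.00689). The hepatocyte markers summed to 18925 to 19257 CPM in germ-free and 20762 to 24575 CPM in conventional serum, and 5 of the 10 fell. Stellate cell markers (36.4 to 39.4 against 26.8 to 34.0 CPM) and macrophage markers (127 to 136 against 107 to 116 CPM, mostly Cd68) did not overlap either, with none of them called. Their part in the result was not tested.

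The third comparison set conventional male serum against conventional female serum, both on female hepatocytes. It shares the conventional female libraries with the second, so a like result in both is not independent. In male serum 5 members were lower and Clu was higher, 19.4% of the 31, against 8.8% of all genes tested (3.95% higher and 4.85% lower). Cfb and the C2 row are both counted here, though they stand for 1 signal. The median log2 difference was -0.06 over the members and 0.0015 over all genes. Clu stood at 10028, 9993 and 10558 CPM in male serum and 7791 and 6877 CPM in female serum, a log2 difference of 0.47 ± 0.072 (SE) with adjusted p = 6.65e-04. It was called in all 13 alternative analyses, at 0.39 to 0.56. Mbl2 stood at 469.6, 592 and 576 CPM and 809.6 and 753 CPM (-0.52 ± 0.12 (SE), adjusted p = 0.0114), and Cfb at 250.3, 324 and 288 CPM and 500.0 and 374 CPM (-0.60 ± 0.14 (SE), adjusted p = 0.0134).

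The C2 row followed Cfb (-0.59, adjusted p = 0.0148), and without the Cfb counts C2 did not pass (-0.16, adjusted p = 0.532). Masp2 stood at 8.86, 7.81 and 7.74 CPM in male serum and 12.7 and 10.4 CPM in female serum (-0.50 ± 0.14 (SE), adjusted p = 0.0339), with Tardbp at -0.10 (adjusted p = 0.411). C1rl stood at 4.93, 5.28 and 5.06 CPM and 7.70 and 6.38 CPM (-0.47 ± 0.13 (SE), adjusted p = 0.0337). The libraries of the 2 sera did not overlap for any of these genes, which were named because they were called. The share of all genes without overlap is not given here either. Without conventional female replicate 2 only Clu was called, with Cfb at -0.38 (adjusted p = 0.198) and Mbl2 at -0.47 (adjusted p = 0.0863), and without both Xist-rich libraries Mbl2 and Clu were. Calls were also lost without male serum replicate 1 (C1rl, C2 and Cfb), replicate 2 (Masp2) or replicate 3 (C1rl and Masp2), and in a fit of these 2 groups alone (C1rl and Masp2). Without conventional female replicate 3, C1s1 and C3 were gained. Macrophage markers summed to 81.2 to 100 CPM in male serum and 107 to 116 CPM in female serum, with Cd68 called lower, while hepatocyte sums overlapped (19784 to 21906 and 20762 to 24575 CPM), with 1 marker higher and 3 lower. Stellate cell sums overlapped as well (18.8 to 27.0 and 26.8 to 34.0 CPM). Their part was not tested.

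**Figure D4:**
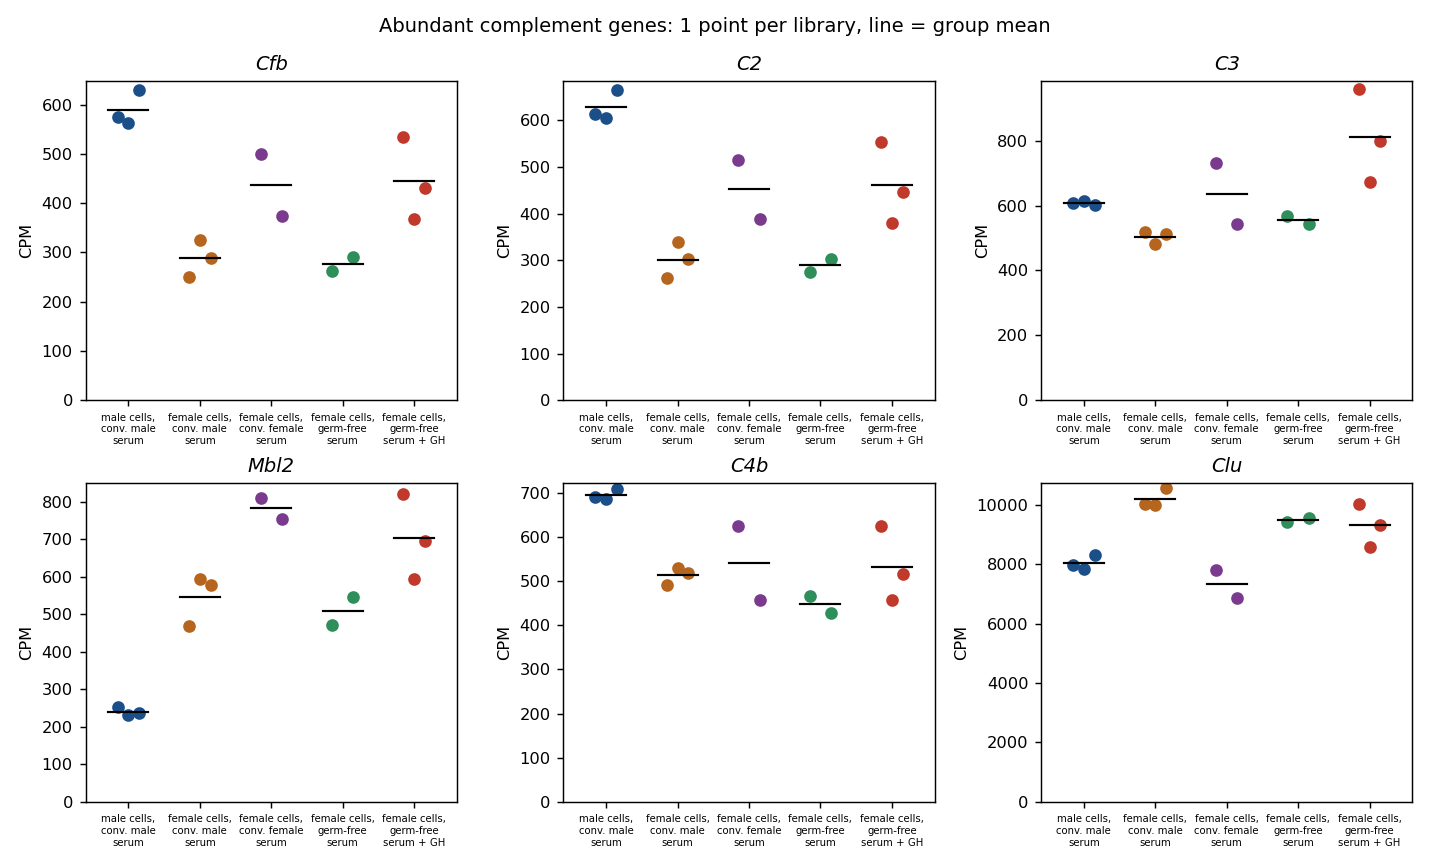
CPM of 6 abundant members, with 1 point per library, a line at the mean of each group and axes from 0. Clu is lowest in female cells in conventional female serum, at 6877 and 7791 CPM, and Mbl2 is lowest in male cells, at 231 to 252 CPM.

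Germ-free female serum and conventional male serum, compared on female hepatocytes, gave no member past the threshold in edgeR or DESeq2, against 0.448% of all genes in edgeR. At an unadjusted p under 0.05 there were 4: C1qa (-0.68), C1qb (-1.09), C8b (-0.24) and C8g (-0.34). No share over all genes at that p is given here, so this count cannot be weighed and these 4 are not called. The median over the members was -0.09. For the genes called in the other serum comparisons the log2 differences were -0.06 ± 0.14 (SE) for Cfb, -0.10 ± 0.12 (SE) for Mbl2, 0.00 ± 0.14 (SE) for Masp2, 0.22 ± 0.13 (SE) for C1rl and -0.10 ± 0.071 (SE) for Clu. The libraries of these 2 sera did not overlap for C1rl or Clu, with no share of all genes without overlap given. A p that misses the threshold does not show that these sera act alike.

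Among the further complement genes, 2 were lower in germ-free than in conventional female serum, Cpn2 (-1.14) and Cpb2 (-0.29), and 3 were lower in male than in female conventional serum, among them Cpn2 (-1.27) and Cpb2 (-0.32). None of the 21 was higher in either, and the shares called were 9.52% and 14.3%, against 6.41% and 8.8% of all genes. Here too, shares of lists chosen with earlier results known describe the lists only. Cpn2 and Cpb2 encode a subunit of carboxypeptidase N and carboxypeptidase B2, which inactivate the peptides C3a and C5a. Of the 24 upstream genes, 5 were lower in germ-free serum: Il6ra (-0.73), Nr1h4 (-0.68), Cebpa (-0.44), Hnf4a (-0.43) and Il6st (-0.39), or 20.8% of the list. In male serum 6 were lower, or 25% of the list, among them Cebpd (-0.87), Ifngr1 (-0.46), Cebpa (-0.33), Irf1 (-0.32) and Nfkbia (-0.26). Between germ-free female and conventional male serum no gene of either list passed in edgeR or DESeq2. In edgeR 3 and 4 genes had an unadjusted p under 0.05, with no share over all genes given at that p.

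The last comparison asked what 2 h of growth hormone did to female hepatocytes in germ-free serum. Cfb with the C2 row was higher with the hormone, and no member was lower. These 2 rows are 6.45% of the 31 tested, against 0.586% of all genes (0.511% higher and 0.0747% lower), and they stand for 1 signal. The median log2 difference was 0.25 over the members and -0.0011 over all genes. An unadjusted p under 0.05 was found for 10 members, but no share over all genes at that p is given here. The vehicle libraries here are the germ-free libraries of the second comparison, so opposite signs in the 2 comparisons are partly built in.

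Cfb stood at 535, 368 and 431 CPM with growth hormone and 263 and 291 CPM with vehicle, a log2 difference of 0.68 ± 0.14 (SE) with adjusted p = 0.0407. The C2 row gave 555, 381 and 447 CPM and 275 and 303 CPM (0.67, adjusted p = 0.0407), and C2 without the Cfb counts did not pass (0.42, adjusted p = 0.267). All hormone libraries lay above both vehicle libraries for Cfb. With the replicate number as a block, edgeR did not call Cfb (adjusted p = 0.164). The call was lost without germ-free replicate 2 (adjusted p = 0.408), germ-free replicate 3 (0.246), hormone replicate 1 (0.159) or hormone replicate 3 (0.107), while it was kept, and C3 gained (0.40, adjusted p = 0.0273), without both Xist-rich libraries.

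C3 stood at 960.1, 671 and 799 CPM with the hormone and 567 and 542 CPM with vehicle. Its groups did not overlap, and its log2 difference of 0.55 ± 0.12 (SE) had adjusted p = 0.0687, past the threshold in DESeq2 (adjusted p = 0.00181). Mbl2 stood at 821, 592 and 694 CPM and 471 and 546 CPM (0.47 ± 0.12 (SE), adjusted p = 0.116), also called by DESeq2 (adjusted p = 0.0127). Without hormone replicate 2, edgeR called 5 rows: C1s1, Mbl2, C3, and Cfb with C2 as 1 signal. C9 (0.23 ± 0.11 (SE)) and Clu (-0.03 ± 0.071 (SE)) did not pass. C6 had 10 and 14 counts in the vehicle libraries and 6, 4 and 9 in the hormone libraries, and its difference of -1.17 ± 0.46 (SE) did not pass either (adjusted p = 0.307).

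**Figure D5:**
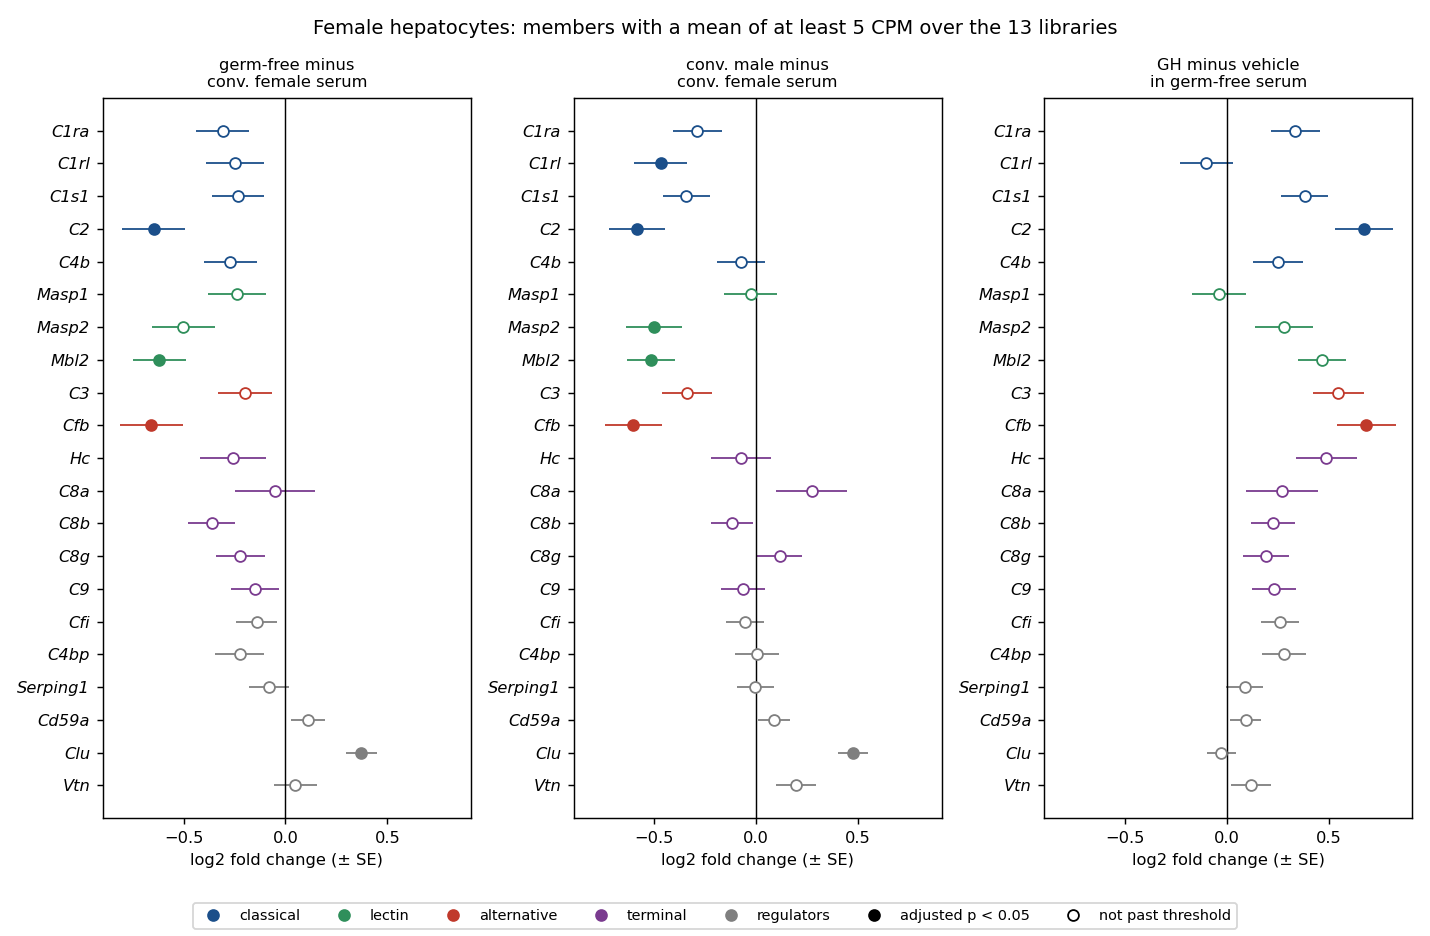
Log2 differences in female hepatocytes for the 21 members with a mean of at least 5 CPM over the 13 libraries, with bars of 1 SE and colours by pathway, for germ-free against conventional female serum, conventional male against conventional female serum, and growth hormone against vehicle in germ-free serum. Filled points passed an adjusted p of 0.05. Cfb and C2, which share reads, are at -0.66 and -0.65 in the first panel and 0.68 and 0.67 in the last, and these panels share the germ-free vehicle libraries.

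None of the 21 further complement genes passed with growth hormone in edgeR or DESeq2. In edgeR 5 had an unadjusted p under 0.05, with no share over all genes given at that p. Of the 24 upstream genes, 5 were higher and none lower, which is 20.8% against 0.586% of all genes. The list was chosen with earlier results of these data known, so the share describes the list only. Il6, the cytokine that drives the acute phase response, had 376 counts over the 3 hormone libraries and 2 counts over both vehicle libraries, a ratio of 105 (95% Clopper-Pearson interval 28.9 to 872, counting error only). Cebpd (1.87), Nfkbia, an inhibitor of NF-kB (0.77), Socs3 (0.69) and Irf1, an interferon-responsive transcription factor (0.62), were the others. The hepatocyte markers summed to 20462 to 25105 CPM with the hormone and 18925 to 19257 CPM with vehicle, and all 10 had a higher mean with the hormone. Stellate cell markers summed to 21.9 to 31.2 CPM and 36.4 to 39.4 CPM, and all 12 had a lower mean. Endothelial markers summed to 20.0 to 25.6 CPM with the hormone and 26.38 to 26.40 CPM with vehicle, and 9 of 10 had a lower mean. The groups did not overlap for any of these sums, and no marker of these lists passed the test. Of the 12 macrophage markers 6 had a higher and 6 a lower mean with the hormone, and none of the 8 tested was called. Cd68 averaged 95.7 CPM with the hormone and 124 CPM with vehicle, and Clec4f 1.79 and 3.01 CPM. Ptprc averaged 0.883 and 0.357 CPM, and Mrc1 2.19 and 1.31 CPM. The 11 without Cd68 summed to 7.00 to 9.76 CPM and 7.83 to 8.47 CPM. The part of other cell types in the hormone result was not tested.

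Across the 10 female libraries the members differed in how far they ranged. C9 ran from 3.20 to 4.15 CPM (median 3.65), Serping1 from 86.1 to 105 CPM (median 96.6) and Cd59a from 23.1 to 29.1 CPM (median 25.3). Cfb ran from 250.3 to 535 CPM (median 346), Mbl2 from 469.6 to 821 CPM (median 592) and C3 from 481 to 960.1 CPM (median 555). The upper ends of all these genes but Serping1 were in hormone replicate 1, which is rich in Xist. Without both Xist-rich libraries the upper ends were 431 CPM for Cfb, 753 CPM for Mbl2 and 799 CPM for C3. They were then 3.95 CPM for C9 and 28.7 CPM for Cd59a. The male libraries lay above all 10 female libraries for Cfb (563 to 629 CPM) and below all of them for Mbl2 (231 to 252 CPM), and within their range for C3 (603 to 614 CPM) and Clu (7852 to 8325 CPM).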

How the data were processed

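The authors deposited unscaled whole-number read counts over the exons of each gene for 15 labelled samples. Per the submitters' processing notes, reads were aligned with STAR 2.4.0i to mm10. For the counting program, annotation and strand setting, nothing is given in the sources used here. Libraries were ribosome-depleted and stranded (250 ng RNA, 12 PCR cycles, 2 reads of 100 cycles), per the labels' protocols. Of the columns, 2 carry the same name and could not be assigned, so they were used in no step and 13 libraries remained. Replicates within a group differed beyond sampling noise (chi-square per degree of freedom 5.46 to 53.4 over genes with at least 20 counts).

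In edgeR 4.0.16 under R 4.3.3, genes were kept by filterByExpr (minimum count 10) and libraries scaled by TMM. One model of the 5 groups, with 8 residual degrees of freedom, was tested with the two-sided quasi-likelihood F test, with Benjamini-Hochberg adjustment over all 17405 genes tested in each of 5 comparisons and a threshold of 0.05. All adjusted p-values come from it unless DESeq2 (1.42.0) is named. "Higher", "lower" and "called" mean past that threshold. Counts at an unadjusted p under 0.05, and statements that libraries did not overlap, have no share over all genes beside them. They cannot be weighed. CPM use library sizes scaled by TMM. Exon lengths and positions came from GENCODE M21, promoters from RefSeq. The procedure was tested on simulated data whose planted changes were larger than any called difference of a member within female cells. That test does not bear on differences of the smaller size.

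The members, the lists of further complement and upstream genes and the cell markers were chosen with earlier results of these data known. Values per library are given for called members with a mean of at least 5 CPM, and for C6, Mbl1, Colec10, C1qa and C3, which were added after their values were seen. Of the further lists at most 6 called genes are named, by size of the difference, and some of them are not reported here. Alternatives covered scaling, filtering, the tool, the groups fitted, a replicate block and each library left out.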

Additional observations from a re-analysis of the deposited data

How the results depend on the processing

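Between male and female cells, 22 to 25 members were called in every alternative, and 22 of the 23 calls were kept in all of them. Scaling by library size alone moved the median log2 difference of all genes there to -0.11 and changed no member's direction. Between germ-free female and conventional male serum no member was called in any alternative. For germ-free against conventional female serum the count of 4 became 2 without both Xist-rich libraries and 0 to 5 with 1 library left out. For male against female conventional serum the count of 6 became 2 without both Xist-rich libraries and 1 to 8 with 1 library left out. For growth hormone the count of 2 became 8 with no low-count filter, 4 with DESeq2, 1 with C2 counts less Cfb counts (an alternative chosen after seeing the data) and 0 to 5 with 1 library left out. Cfb and the C2 row are counted separately in all these counts. No called member reversed its direction in any alternative. Where leaving out a library left an arm with 1 sample, that sample was assumed to vary like the other groups. The other causes of these shifts were not tested.

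With the replicate number as a block, the counts of members called were 4, 6, 0 (germ-free female against conventional male serum), 0 (growth hormone, where Cfb and C2 had an adjusted p of 0.164) and 23. The numbers did not pair the libraries: deviations from the group means correlated at -0.173 to 0.126 over 23 pairs with the same number, at or under 0.1 in 22 of them, and at -0.251 to 0.251 over 44 pairs with different numbers. Depth limits C6 in female cells, and Cfd, Colec11, Cd46, Cd55 and Fcna in all groups.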
